A study of Mus musculus with 20 samples.

Results

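The genes described here encode 8 proteins of the junctions, surface and matrix of endothelial cells: Pecam1, Cdh5, Cldn5, Esam, Jam2, Ptprb, Egfl7 and Mmrn2. They were chosen by symbol from the deposited count table, where each has 1 row among 34255 genes, and all 8 passed the filter on low counts. The study asked how transcription differs between the microvascular beds of the mouse renal cortex. Every sample, whole kidney included, came from a healthy, untreated male WT mouse of the C57BL6/OlaHsd strain, aged 8 to 12 weeks. Laser microdissection gave 4 samples each of arterioles, glomeruli, post-capillary venules and peritubular capillaries, and 4 samples of whole kidney sections served as the reference. Capillaries were cut from sections stained with isolectin B4 and the other compartments from sections stained with hematoxylin, and arterioles and capillaries were collected as smaller areas than glomeruli and venules. A microdissected piece holds the whole vessel wall or tuft with whatever adheres to it, so these are not purified endothelial cells. By the methods, the sections of a mouse supplied all 4 compartments, so that libraries of different compartments can come from the same mouse. The labels do not say which mouse gave which library, and p-values therefore measure only the spread between libraries, which may be technical in part.

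Libraries held between 4639090 and 12283098 counts. Each is named below by its compartment and the number its column carries (93, 96, 98 or 100), and 4 values in a row follow that order. The column of capillary 96 alone carries further letters, WH, whose meaning is not given. It was taken as a capillary library by its letter and header. Levels are CPM, counts scaled to a library total of 1000000 after TMM, a correction for differences in RNA composition. An adjusted p (FDR) is the Benjamini-Hochberg value of edgeR's quasi-likelihood test over all genes tested. Against whole kidney a gene was called where the FDR was under 0.05 and the log2 fold change was beyond 1 in either direction, and between compartments where the FDR was under 0.05. Some genes are also counted at an unadjusted p under 0.05 of the same test. The share of all genes at that unadjusted p was not counted, so such counts say nothing that is particular to the genes described. Microdissected libraries were made with a low-input version of the kit and more PCR cycles than whole kidney libraries, and this cannot be told apart from the difference between compartment and whole kidney. In samples of this kind, fewer endothelial cells and less RNA per endothelial cell cannot be told apart either.

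Endothelial cells are held together by adherens junctions, built around VE-cadherin, and by tight junctions, built from claudins and from adhesion molecules of the immunoglobulin family. The tightness of these contacts sets how easily fluid, solutes and leukocytes leave a vessel, and it differs along the vascular tree, with tight arterioles, fenestrated glomerular and peritubular capillaries, and venules that are the usual site of leukocyte exit. Around the junctions act a receptor phosphatase that restrains VE-cadherin and TIE2 signalling, and secreted matrix proteins that endothelial cells lay down beneath themselves.

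Start-site sequence is shown for Cldn5, whose fold change in arterioles against whole kidney was the largest of the 8, and for Egfl7, the other of the genes with a window. RefSeq promoter windows (build GRCm38.p6, 250 bases before to 50 after a start site) were matched for 2 of the 8 genes, Cldn5 with 1 window and Egfl7 with 3. They were searched on both strands for GGAAG (reverse complement CTTCC), a form of the core bound by ETS factors, which are known regulators of endothelial genes, and for ACAAT (reverse complement ATTGT), a core bound by SOX factors. Other forms of these cores were not searched for. Matches are in capitals in the windows printed here, those of Cldn5 at chr16:18776597-18776896 and of Egfl7 at chr2:26580833-26581132 and chr2:26583615-26583914, all on the plus strand.
Cldn5: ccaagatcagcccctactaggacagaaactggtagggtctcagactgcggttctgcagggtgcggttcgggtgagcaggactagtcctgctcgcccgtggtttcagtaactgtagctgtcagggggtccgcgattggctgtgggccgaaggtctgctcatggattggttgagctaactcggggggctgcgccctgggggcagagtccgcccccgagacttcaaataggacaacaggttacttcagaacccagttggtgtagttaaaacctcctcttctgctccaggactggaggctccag
Egfl7, upstream window: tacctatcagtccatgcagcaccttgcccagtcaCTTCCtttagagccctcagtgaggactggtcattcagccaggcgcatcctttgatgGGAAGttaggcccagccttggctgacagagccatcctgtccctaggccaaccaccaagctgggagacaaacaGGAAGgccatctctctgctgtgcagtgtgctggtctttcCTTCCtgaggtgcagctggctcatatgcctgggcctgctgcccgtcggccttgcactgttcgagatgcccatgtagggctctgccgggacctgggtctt
Egfl7, middle window: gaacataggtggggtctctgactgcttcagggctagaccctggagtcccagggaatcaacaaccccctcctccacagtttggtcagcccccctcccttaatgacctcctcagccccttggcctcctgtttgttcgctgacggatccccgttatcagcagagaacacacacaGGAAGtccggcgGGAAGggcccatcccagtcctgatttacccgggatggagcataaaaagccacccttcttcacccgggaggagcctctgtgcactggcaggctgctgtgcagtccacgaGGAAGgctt
The Cldn5 window held neither of the sequences searched for. The upstream Egfl7 window held GGAAG, on either strand, 4 times and the middle window 3 times, while the last window, at chr2:26586386-26586685, held neither sequence. GGAAG occurred in 71.4% and ACAAT in 31% of all 32851 windows of this length, so a match or its absence describes the letters and nothing more. Egfl7 also hosts Mir126a, a microRNA typical of endothelium, whose mature 3p strand (chr2:26591402-26591423, plus strand) is printed with its seed, bases 2 to 8, in capitals.
mmu-miR-126a-3p: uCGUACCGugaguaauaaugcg
The microRNA itself was not analysed here, and the values below are those of the Egfl7 mRNA.

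Before the genes were compared, the compartments were checked for endothelium. All 6 defining endothelial genes (Tie1, Tek, Eng, Erg, Flt1 and Kdr) had counts in every library of every group. Their summed level was 975 ± 264 CPM (SD, n = 4) in arterioles, 2018 ± 127 CPM in glomeruli, 514 ± 163 CPM in peritubular capillaries, 569 ± 141 CPM in venules and 297 ± 41.3 CPM in whole kidney. Other cells were present as well. The summed level of 6 smooth muscle genes was 17700 to 42830 CPM in arterioles and 230 to 281 CPM in whole kidney, that of 6 podocyte genes 6809 to 7685 CPM in glomeruli and 177 to 202 CPM in whole kidney, and that of 6 proximal tubule genes 63870 to 117700 CPM in capillaries, 23230 to 28890 CPM in venules and 34820 to 37790 CPM in whole kidney. All genes of these 3 lists had counts in every library. Mesangial and pericyte genes, 6 in all, summed to 4436 to 9269 CPM in arterioles and 633 to 875 CPM in glomeruli. They were at 248 to 438 CPM in venules, 69.5 to 211 CPM in capillaries and 98.1 to 135 CPM in whole kidney. Erythrocyte genes, also 6, summed to 10570 to 76560 CPM in arterioles, 17010 to 51140 CPM in venules and 10530 to 13140 CPM in glomeruli. In capillaries they were at 899.5 to 2809 CPM and in whole kidney at 2013 to 4058 CPM. The 5 lymphatic endothelial genes in the table summed to 11.8 to 489 CPM in arterioles, 180 to 283 CPM in glomeruli, 0.885 to 29.0 CPM in capillaries, 20.9 to 86.3 CPM in venules and 34.8 to 39.3 CPM in whole kidney. The part of these cells in the results below was not tested.

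All 8 genes had their highest mean level in arterioles. Summed over the 8, the level was 4956 ± 1475 CPM (SD, n = 4) in arterioles, 1632 ± 126 CPM in glomeruli, 759 ± 138 CPM in venules, 362 ± 177 CPM in peritubular capillaries and 236 ± 19.2 CPM in whole kidney. The arteriole libraries ran from 3432 to 6920 CPM and the glomerular libraries from 1525 to 1804 CPM, so that these groups did not overlap. Capillary libraries, at 248.8 to 621 CPM, did overlap with whole kidney libraries, at 218 to 263 CPM.

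**Figure D1:**
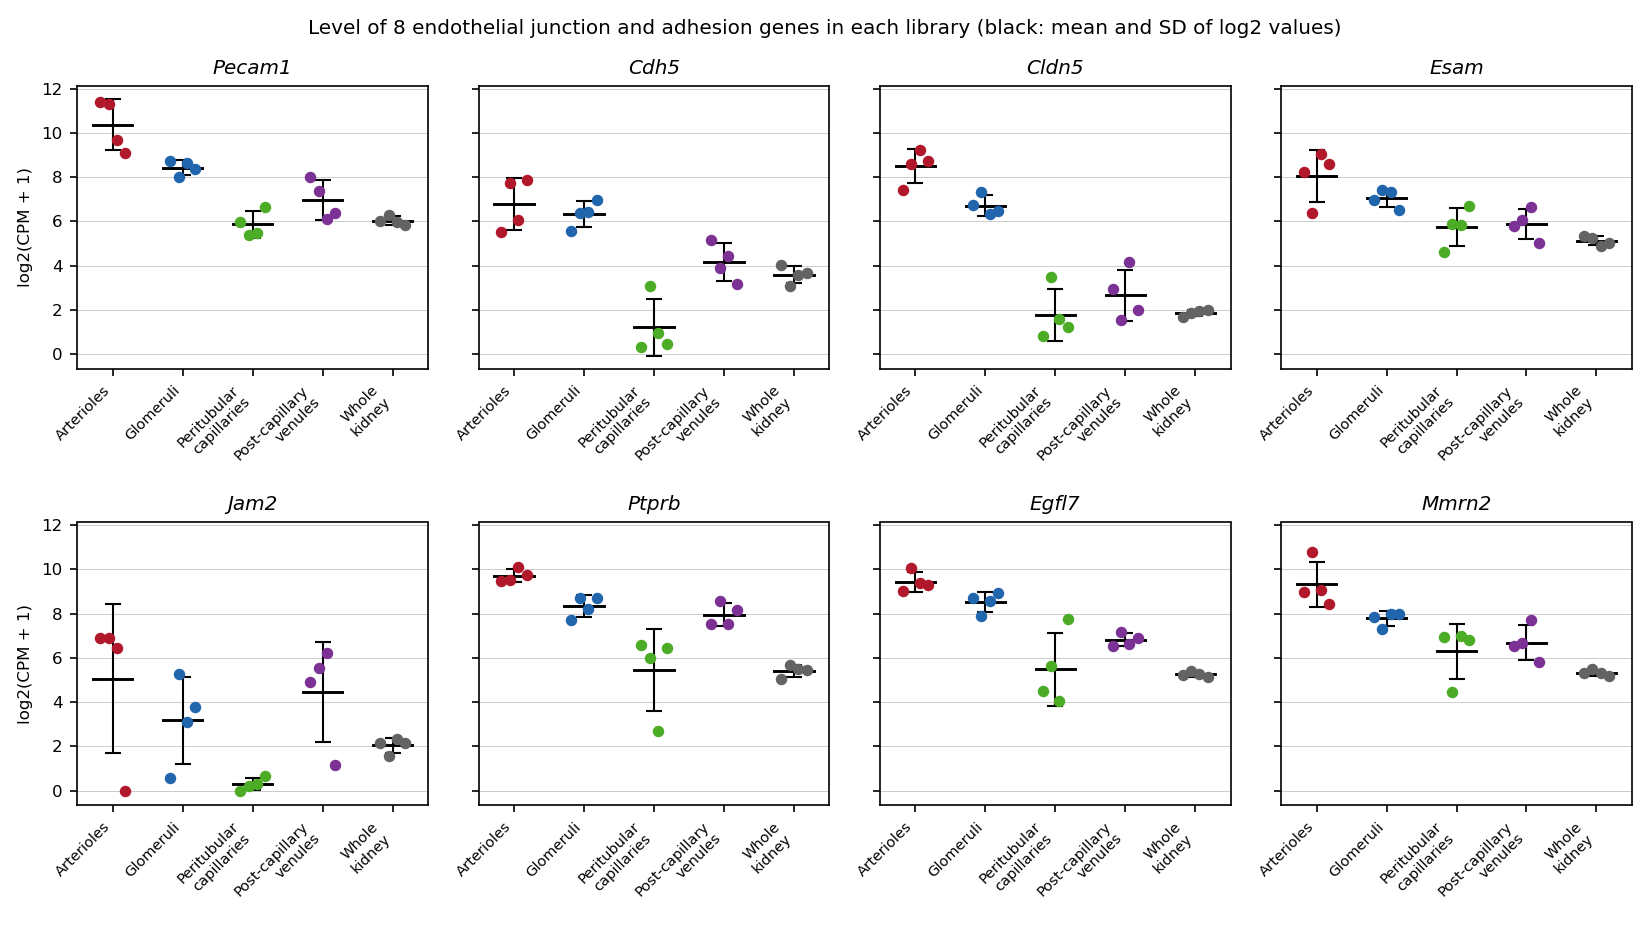
Level of each gene in the 20 libraries, as log2(CPM + 1), with 1 point per library, a bar at the mean of 4 libraries and an SD. Whole kidney points lie close together, Jam2 is at 0 in arteriole 100, and Cdh5, Cldn5 and Jam2 lie lowest in peritubular capillaries or whole kidney.

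Pecam1 encodes PECAM1 (CD31), an immunoglobulin family protein by which endothelial cells adhere to each other and which platelets and leukocytes also carry. It lies on chromosome 11 (GRCm38, 106654217 to 106750628, minus strand). In arterioles it was at 2720, 2549, 822 and 552 CPM, in glomeruli at 425, 256, 394 and 326 CPM, and in venules at 257, 167, 67.3 and 82.7 CPM. In peritubular capillaries it was at 61.8, 40.3, 42.9 and 100.1 CPM, and in whole kidney at 64.8, 77.3, 62.8 and 55.5 CPM. Every arteriole library was above every glomerular library, but arterioles 93 and 96 were far above arterioles 98 and 100. The log2 fold change against whole kidney was 4.67 ± 0.54 (SE, FDR = 8.03e-08) in arterioles and 2.43 ± 0.49 (FDR = 0.0019) in glomeruli, and neither venules (1.14 ± 0.47, FDR = 0.383) nor capillaries (-0.09 ± 0.46, FDR = 0.981) passed. Pecam1 was also higher in arterioles than in glomeruli, by 2.25 ± 0.52 on the log2 scale (FDR = 0.0101), a call that was lost without arteriole 93 (FDR = 0.0532) or without glomerulus 96 (FDR = 0.0515). Platelet genes, 6 in all, summed to 0.853 to 268 CPM in arterioles and 13.7 to 17.7 CPM in whole kidney, with Treml1 at 0 in all arteriole libraries. The 6 leukocyte genes summed to 67.7 to 452 CPM in arterioles and 46.3 to 58.7 CPM in whole kidney, with Cd3e and Cd79a at 0 in all arteriole libraries, and the part of these cells in the Pecam1 level was not tested.

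Cdh5 encodes VE-cadherin, the cadherin of endothelial adherens junctions (chromosome 8, 104101625 to 104144511, plus strand). It was at 45.4, 214, 65.4 and 232 CPM in arterioles, at 45.8, 82.4, 85.6 and 126 CPM in glomeruli and at 35.0, 13.9, 20.8 and 7.90 CPM in venules. Whole kidney libraries were at 15.6, 7.49, 11.1 and 11.7 CPM, and peritubular capillaries at only 0.249, 7.52, 0.933 and 0.391 CPM, from 2, 51, 8 and 2 counts. Capillaries were the one compartment with a lower mean than whole kidney, yet capillary 96 overlapped with whole kidney and the log2 fold change did not pass (-2.33 ± 1.02, FDR = 0.339), nor did it without that library (-4.40, FDR = 0.182). In arterioles the log2 fold change against whole kidney was 3.60 ± 1.07 (FDR = 0.0258). This call was lost without arteriole 96 (FDR = 0.0543), without arteriole 100 (FDR = 0.0546) and without any single one of whole kidney 93, 96, 98 or 100 (FDR = 0.0665, 0.0853, 0.0785 and 0.0771). Glomeruli stood 2.89 ± 1.04 above whole kidney without passing (FDR = 0.125), although all 4 glomerular libraries were above all 4 of whole kidney. Cdh5 was higher in arterioles (log2 fold change 5.93 ± 1.32, FDR = 0.00231) and glomeruli (5.21 ± 1.28, FDR = 0.00966) than in capillaries, and both calls held without capillary 96, with differences of 7.999 (FDR = 0.000678) and 7.29 (FDR = 0.00215).

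Cldn5 encodes claudin-5, the sealing claudin of endothelial tight junctions, best known from the blood-brain barrier (chromosome 16, 18776847 to 18778262, plus strand). Its levels were 168, 382, 594 and 431 CPM in arterioles and 107, 162, 78.8 and 87.0 CPM in glomeruli. Venules were at 6.61, 1.95, 16.9 and 2.95 CPM, peritubular capillaries at 0.746, 10.2, 1.98 and 1.37 CPM, and whole kidney at 2.23, 2.65, 2.88 and 3.02 CPM. The 5 groups thus fell into 2 sets: every arteriole and glomerular library was above every library of the other 3 groups. Mean CPM was 146 times that of whole kidney in arterioles and 40.3 times in glomeruli, with log2 fold changes of 7.18 ± 0.97 (FDR = 1.73e-06) and 5.33 ± 0.89 (FDR = 0.000184). Venules and capillaries did not pass against whole kidney (FDR = 0.64 and 0.935), nor did arterioles against glomeruli (1.85 ± 0.82, FDR = 0.208). Glomeruli were above venules by 3.94 ± 0.90 (FDR = 0.0161), which was lost without glomerulus 96 (FDR = 0.0572) and without venule 93, 96 or 100 (FDR = 0.0607, 0.0752 and 0.0834). Cldn5 in capillaries rested mainly on capillary 96, and without that library the log2 difference from whole kidney turned from 0.40 to -0.98, neither of which passed. The called differences of arterioles and glomeruli from capillaries, 6.78 and 4.92, were 8.15 (FDR = 5.73e-06) and 6.30 (FDR = 0.000153) without it.

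Esam encodes an endothelial cell-selective adhesion molecule of tight junctions, which platelets, whose genes are given above, carry too (chromosome 9, 37528078 to 37538319, plus strand). In arterioles it was at 298, 82.4, 526 and 381 CPM, in glomeruli at 123, 172, 160 and 91.3 CPM and in venules at 54.6, 67.0, 100.2 and 32.0 CPM. Peritubular capillaries were at 23.7, 58.1, 56.0 and 104 CPM and whole kidney at 39.2, 37.0, 28.7 and 31.4 CPM. Arteriole 96 was well below the other arteriole libraries and lay within the range of capillaries and venules. Esam was higher in arterioles than in whole kidney (log2 fold change 3.24 ± 0.67, FDR = 0.00116) and than in capillaries (2.41 ± 0.73, FDR = 0.0268). The second call was lost without arteriole 98 (FDR = 0.0843) and without capillary 93, 96 or 98 (FDR = 0.0835, 0.0644 and 0.0634). Glomeruli had a log2 fold change of 2.00 ± 0.64 against whole kidney (FDR = 0.0751) and arterioles one of 2.34 ± 0.73 against venules (FDR = 0.0563). The latter passed without arteriole 96 (2.66, FDR = 0.0146).

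Jam2 encodes junctional adhesion molecule B, a partner of JAM-C that is concentrated at endothelial contacts (chromosome 16, 84774123 to 84825928, plus strand). It had the fewest counts of the 8 genes. Arterioles were at 120, 117, 86.3 and 0 CPM, glomeruli at 0.501, 37.5, 7.56 and 12.6 CPM, and venules at 28.9, 46.1, 74.5 and 1.21 CPM. Whole kidney was at 3.44, 1.96, 4.11 and 3.50 CPM, and peritubular capillaries at 0, 0.148, 0.233 and 0.587 CPM, which is 0 to 3 counts a library. A level of up to 0.535 CPM is compatible with the 0 counts in arteriole 100, where a count of 3 is taken as the limit and counting error alone is covered, so this library was below the other 3 arteriole libraries by far more than depth allows. No log2 fold change of Jam2 against whole kidney passed: it was 4.63 ± 1.62 in arterioles (FDR = 0.054), 3.53 ± 1.53 in venules (FDR = 0.427), 2.15 ± 1.45 in glomeruli (FDR = 0.588) and -3.73 ± 1.61 in capillaries (FDR = 0.328). Without arteriole 100 the arteriole value was 5.04 and passed (FDR = 0.0204). Jam2 was higher in arterioles than in capillaries (FDR = 0.0074). Pooled over 4 libraries each, arterioles were at 81.1 CPM and capillaries at 0.21 CPM (6 counts, 95% exact Poisson interval 0.0772 to 0.458 CPM). Their ratio was 386, with an interval of 177 to 1051 that covers the counting error of the capillary counts alone and treats reads as independent molecules. Venules had the second highest mean of Jam2, whereas glomeruli held that place for the other 7 genes, but venules and glomeruli overlapped and did not differ by the test (log2 fold change of glomeruli against venules -1.38 ± 1.54, FDR = 0.965).

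Ptprb encodes VE-PTP, the receptor phosphatase that binds VE-cadherin and TIE2 and keeps both dephosphorylated (chromosome 10, 116275523 to 116389535, plus strand). The unclassified transcript Gm47625 lies within it on the same strand and had 2075 counts over the 20 libraries. Arterioles were at 714, 733, 1097 and 868 CPM, glomeruli at 206, 421, 291 and 420.1 CPM and venules at 184, 385, 183 and 285 CPM. Peritubular capillaries were at 95.9, 63.4, 5.48 and 87.2 CPM and whole kidney at 32.1, 50.5, 44.1 and 43.4 CPM. Arterioles were above all other libraries and the venules above every capillary and whole kidney library. Ptprb was the only one of the 8 genes called in venules against whole kidney, with a log2 fold change of 2.61 ± 0.55 (FDR = 0.0154), beside 4.33 ± 0.59 in arterioles (FDR = 1.97e-06) and 2.98 ± 0.55 in glomeruli (FDR = 0.000743). The call in venules was lost without venule 96 (FDR = 0.117) and without whole kidney 93, 96, 98 or 100 (FDR = 0.137, 0.0625, 0.0945 and 0.0813). Glomeruli and venules were close (log2 fold change 0.36 ± 0.55, FDR = 0.998). Capillary 98, at 47 counts, was far below the other capillary libraries, which had 430 to 772 counts.

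Egfl7 encodes a secreted matrix protein made almost only by endothelium (chromosome 2, 26580014 to 26593120, plus strand). Its last bases overlap those of Agpat2 on the opposite strand, and reads there could be told apart only by strand. The protein-coding gene Gm20532 (26586639 to 26635634) spans its end on the same strand and has no row in the count table. Strand could not tell reads shared with Gm20532 apart. Whether the counting used strand is not stated in the methods or labels. Egfl7 was at 515, 1058, 661 and 618 CPM in arterioles, at 419, 236, 375 and 489 CPM in glomeruli and at 92.5, 145, 98.6 and 120.0 CPM in venules. Peritubular capillaries were at 21.6, 48.2, 15.7 and 215 CPM and whole kidney at 36.7, 41.8, 37.9 and 34.2 CPM. Arterioles, glomeruli and venules formed 3 ranges without overlap, while capillary 100 alone lay above the venules and the other capillaries lay around whole kidney. The log2 fold change against whole kidney was 4.24 ± 0.63 in arterioles (FDR = 8.92e-06) and 3.33 ± 0.60 in glomeruli (FDR = 0.000557), and 1.60 ± 0.57 in venules without passing (FDR = 0.293). In capillaries it was 1.00 ± 0.56 (FDR = 0.488) and turned to -0.41 without capillary 100 (FDR = 0.896). Glomeruli were above capillaries by 2.34 ± 0.62 (FDR = 0.0188), which was lost without glomerulus 100 (FDR = 0.0654) or without capillary 93, 96 or 98 (FDR = 0.0827, 0.0744 and 0.0847) and grew to 3.71 without capillary 100 (FDR = 0.000117). Arterioles were above capillaries by 3.25, and by 4.63 without capillary 100 (FDR = 3.54e-06).

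Mmrn2 encodes multimerin-2, an extracellular matrix protein of the vessel wall that binds VEGF-A and the receptors CD93 and CLEC14A (chromosome 14, 34375465 to 34404287, plus strand). Arterioles were at 506, 1783, 532 and 350 CPM, glomeruli at 229, 158, 254 and 252 CPM and venules at 92.9, 100.3, 210 and 55.9 CPM. Peritubular capillaries were at 122, 20.9, 128 and 113 CPM and whole kidney at 38.6, 44.4, 38.5 and 35.1 CPM. Arteriole 96 was over 3 times any other arteriole library, and capillary 96 was the only capillary library below whole kidney. The log2 fold change against whole kidney was 4.34 ± 0.62 in arterioles (FDR = 4.37e-06), 3.56 without arteriole 96 (FDR = 4.94e-05), and 2.51 ± 0.57 in glomeruli (FDR = 0.00697). Venules (1.55 ± 0.55, FDR = 0.295) and capillaries (1.29 ± 0.55, FDR = 0.323) did not pass. Mmrn2 was higher in arterioles than in venules (2.78 ± 0.62, FDR = 0.00521), but not without arteriole 96 (2.01, FDR = 0.0577), and the difference from glomeruli did not pass (1.83 ± 0.60, FDR = 0.0991; without arteriole 96, 1.09, FDR = 0.334).

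Set side by side, the comparisons with whole kidney, which share the same 4 whole kidney libraries, gave 7 genes called higher in arterioles, where 5.78% of all 13813 genes tested were called higher. Jam2 was the exception, though with edgeR's RLE scaling in place of TMM it passed too (4.89, FDR = 0.0431). In glomeruli 5 of the 8 were called higher (1.59% of all genes), namely Pecam1, Cldn5, Ptprb, Egfl7 and Mmrn2. Cdh5 and Esam were called there too, 7 genes in all, by DESeq2 (FDR = 0.0189 and 0.0133) and in a fit of the 8 libraries compared alone (FDR = 0.000763 and 0.000657). More of all genes were then called higher as well, 463 of 13735 by DESeq2 and 1508 of 13041 in that fit, against 219 of 13813. In venules 1 was called (0.203% of all genes). In peritubular capillaries none was called by edgeR or by DESeq2 (0.0869% of all genes higher by edgeR), with 3 genes at an unadjusted p under 0.05: Mmrn2 above and Cdh5 and Jam2 below whole kidney. The median log2 fold change of the 8 genes was 4.33 in arterioles, 2.6997 in glomeruli, 1.47 in venules and 0.48 in capillaries, beside 0.22, 0.25, 0.19 and 0.18 for all genes tested. For the 10 other endothelial genes named below as a reference, the medians were 3.03, 2.19, 1.22 and 1.11 in the same order. Of these 10, edgeR called 5 higher in arterioles, 3 in glomeruli and none in venules or capillaries. None of the 8 was called lower by edgeR or DESeq2 in any of these comparisons, where edgeR called 5.5%, 1.47%, 0.0217% and 0.00724% of all genes lower in arterioles, glomeruli, venules and capillaries, and Cdh5 and Jam2 in capillaries were the only ones below whole kidney at an unadjusted p under 0.05.

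The ranges of the libraries gave a similar picture. In arterioles 7 genes were above whole kidney without overlap (8.45% of all genes), Jam2 being the exception through arteriole 100, and in glomeruli likewise 7 (14.6% of all genes), Jam2 being the exception through glomerulus 93. In venules Ptprb, Egfl7 and Mmrn2 did not overlap with whole kidney (3 genes, 5.81% of all genes). In capillaries 1 gene, Jam2, was below whole kidney in every library (18.3% of all genes).

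**Figure D2:**
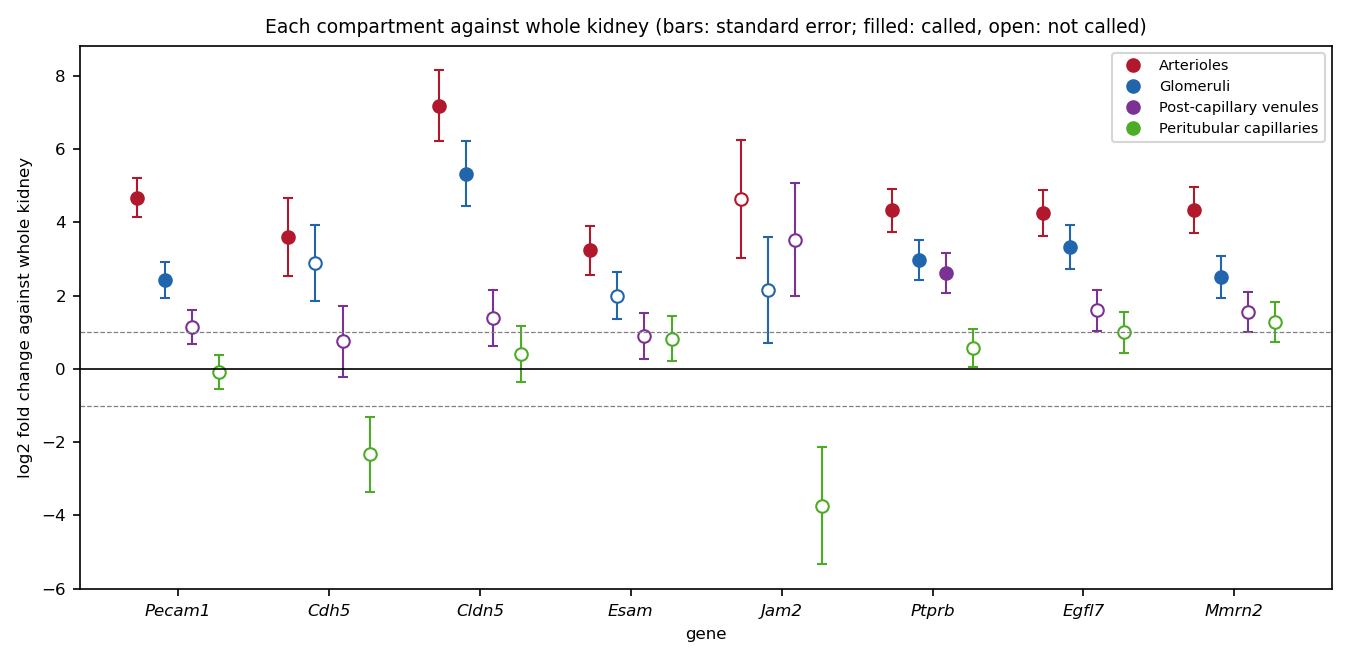
Log2 fold change of each compartment against whole kidney for the 8 genes, with standard errors; filled points were called, open points were not, and dashed lines mark 1 and -1. Cldn5 in arterioles is the highest point at 7.18, the only filled venule point is Ptprb, and no capillary point is filled.

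Between compartments, the median log2 difference of the 8 genes was 4.26 for arterioles against capillaries, 2.71 against venules and 1.59 against glomeruli, and 2.46 for glomeruli against capillaries and 1.19 against venules, beside 0.04 to 0.27 for all genes tested. For capillaries against venules it was -1.11 (0.04 for all genes). For the 10 other endothelial genes named below, the medians were 2.28, 1.41, 0.41, 1.26, 1.10 and -0.31 in the same order. These comparisons share libraries with each other. All 8 genes were higher in arterioles than in capillaries, with log2 fold changes from 2.41 for Esam to 8.35 for Jam2, where 6.22% of all 12179 genes tested were called higher. Against venules 4 genes were higher in arterioles, Pecam1, Cldn5, Egfl7 and Mmrn2 (2.5% of all genes), with log2 fold changes of 3.53 ± 0.55, 5.79 ± 0.98, 2.64 ± 0.63 and 2.78 ± 0.62. With RLE scaling Esam joined them (2.47, FDR = 0.0428). Against glomeruli only Pecam1 was called with TMM (1.33% of all genes) and Mmrn2 as well with RLE scaling (2.24, FDR = 0.0474), although without arteriole 96 its TMM value was 1.09 (FDR = 0.334), while 4 genes had an unadjusted p under 0.05. In glomeruli 5 genes, Pecam1, Cdh5, Cldn5, Ptprb and Egfl7, were higher than in capillaries (2.2% of all genes), with log2 fold changes from 2.34 for Egfl7 to 5.21 for Cdh5, and Cldn5 was higher than in venules (0.493% of all genes). Between capillaries and venules edgeR called none of the 8 (0.328% of all genes lower and 0.0821% higher in capillaries), with 4 genes at an unadjusted p under 0.05 and 2 genes, Cdh5 and Jam2, called lower in capillaries by DESeq2. The log2 differences of these 4 genes, capillaries against venules, were -7.25 ± 2.02 for Jam2, -3.09 ± 1.16 for Cdh5, -2.04 ± 0.57 for Ptprb and -1.23 ± 0.51 for Pecam1. In the other 5 comparisons no member was called lower in the first group, by edgeR or DESeq2, or was lower at an unadjusted p under 0.05. Of all genes edgeR called 0.862% lower in arterioles than in glomeruli, 4.98% than in capillaries and 1.87% than in venules, and 2.29% lower in glomeruli than in capillaries and 0.731% than in venules.

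By range, 5 genes were above glomeruli in every arteriole library (4.47% of all genes), namely Pecam1, Cldn5, Ptprb, Egfl7 and Mmrn2. These and Cdh5, 6 in all, did not overlap between arterioles and capillaries (6.19% of all genes), between arterioles and venules (5.03%) or between glomeruli and capillaries (9.76%). Cdh5, Cldn5 and Egfl7 were above venules in every glomerular library (3 genes, 6.97% of all genes), and Cdh5, Jam2 and Ptprb were below venules in every capillary library (3 genes, 3.38%).

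When the 5 groups were ordered by mean level for each gene, 2 of the 32 neighbouring pairs differed by the test, namely arterioles above glomeruli for Pecam1 and glomeruli above venules for Cldn5. The order was arterioles, glomeruli, venules, capillaries and whole kidney for Cldn5, Esam, Ptprb, Egfl7 and Mmrn2. For Pecam1 and Cdh5 whole kidney stood above capillaries, and for Jam2 venules stood above glomeruli as well. None of the remaining neighbours passed the test, with FDR from 0.0991 to 0.9999, although the libraries did not overlap between arterioles and glomeruli for Cldn5, Ptprb, Egfl7 and Mmrn2, between glomeruli and venules for Cdh5 and Egfl7, between venules and capillaries for Ptprb, or between whole kidney and capillaries for Jam2.

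A marker of a compartment was defined as a gene with an FDR under 0.05 and a positive fold change against the mean of the other 3 compartments and at least 10 CPM in all 4 libraries. By this rule 7 of the 8 genes were arteriole markers, where 4.76% of all genes were. Jam2 passed the test (log2 fold change 3.97 ± 1.14, FDR = 0.0188) but not the minimum of 10 CPM, because of arteriole 100. Esam was no longer an arteriole marker without arteriole 98 (FDR = 0.0669). In glomeruli 1 gene, Cldn5, was a marker (1.48% of all genes), at 2.34 ± 0.60, although its mean was higher in arterioles, and this was lost without glomerulus 96 (FDR = 0.0952). Cdh5 would be a glomerular marker without capillary 96 (2.90, FDR = 0.0217), and Egfl7 without capillary 100 (1.497, FDR = 0.013). None of the 8 was a marker of capillaries or of venules by edgeR or DESeq2 (3.24% and 0.23% of all genes by edgeR). At an unadjusted p under 0.05, 7 genes differed between capillaries and the other 3 compartments and all of them were lower in capillaries. By FDR, Pecam1 (0.000114), Cdh5 (0.00899), Cldn5 (0.00109), Jam2 (0.0175), Ptprb (0.000711) and Egfl7 (0.0153) passed as lower, and Mmrn2 did not (0.0705). Under alternatives the FDR reached 0.0571 for Jam2 and 0.0768 for Egfl7. The marker rule counts higher genes only, and the share of all genes lower in this comparison was not counted. For venules 5 genes differed at an unadjusted p under 0.05, none with an FDR under 0.05, and Jam2 alone of these was above the others.

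To relate each gene to the endothelial RNA in a library, it was also set against the summed CPM of 10 other endothelial genes (Tie1, Tek, Eng, Erg, Flt1, Kdr, Cd93, Clec14a, Ecscr and Robo4). This sum was 1856 ± 437 CPM in arterioles, 2238 ± 122 CPM in glomeruli, 679 ± 239 CPM in capillaries, 727 ± 165 CPM in venules and 354 ± 43.6 CPM in whole kidney. The arteriole libraries (1304 to 2249 CPM) overlapped with the glomerular libraries (2059 to 2330 CPM) in this sum, unlike in the sum of the 8 genes. The 8 genes summed to 2.98, 3.08, 3.36 and 1.59 times the 10 genes in arterioles, 0.667, 0.741, 0.721 and 0.791 times in glomeruli, 0.480, 0.581, 0.412 and 0.621 times in capillaries and 1.18, 1.15, 0.840 and 1.07 times in venules. In whole kidney the ratio was 0.781, 0.660, 0.668 and 0.579. Arterioles did not overlap with any other group in this ratio, venules lay above glomeruli and capillaries, and capillaries below glomeruli. The make-up of the 10-gene sum differed between groups, as its 6 defining genes summed to 975 CPM in arterioles and 2018 CPM in glomeruli. The summed ratio was not computed without Kdr and Flt1.

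**Figure D3:**
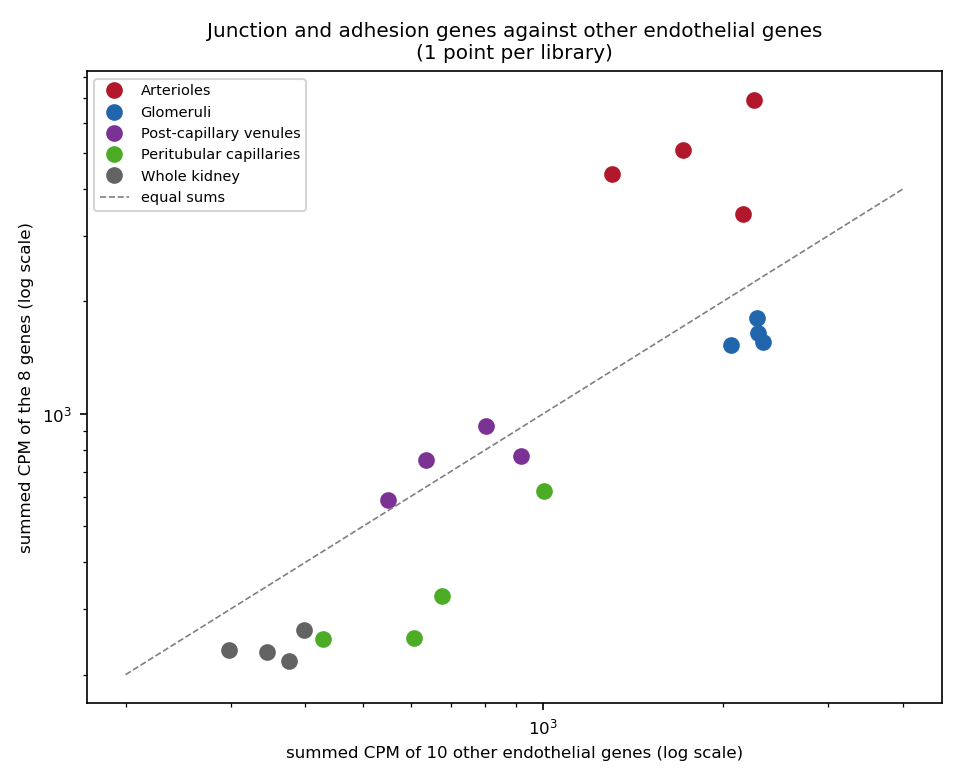
Summed CPM of the 8 genes against the summed CPM of 10 other endothelial genes in each of the 20 libraries, on log axes, with a dashed line where both are equal. The 4 arteriole points lie above the line, glomeruli, capillaries and whole kidney below it, and venules around it.

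Gene by gene, the log2 ratio to the 10-gene sum differed between the 4 compartments for 6 of the 8 genes, by an exact permutation test over all partitions of the 16 microdissected libraries with Benjamini-Hochberg adjustment over the 8 tests made. These 8 genes were chosen with earlier results of the data known, which this adjustment does not cover. The test was not run on the other genes of the table, so the count of 6 says nothing that is particular to these genes. Cldn5 differed most clearly, with mean log2 ratios of -2.34 ± 0.91 (SD, n = 4) in arterioles, -4.41 ± 0.53 in glomeruli, -6.82 ± 1.03 in venules and -7.57 ± 1.61 in capillaries (exact p = 7.08e-05, adjusted 0.000566). Ptprb had a different order, with -1.11 ± 0.59 in arterioles, -1.53 ± 0.65 in venules, -2.80 ± 0.55 in glomeruli and -3.90 ± 1.80 in capillaries (exact p = 0.00132, adjusted 0.00495). Cdh5 stood out by its low ratio in capillaries, -8.13 ± 1.73 against -4.02 ± 0.92 in arterioles, -4.79 ± 0.62 in glomeruli and -5.31 ± 0.81 in venules (exact p = 0.00203, adjusted 0.00495). In capillaries 93, 98 and 100 Cdh5 was below the pseudocount of 1 CPM, as Cldn5 was in capillary 93. The capillary mean and SD of Cdh5 therefore depend on that constant. Pecam1 was highest relative to the 10 genes in arterioles, at -0.45 ± 1.16, and between -3.48 and -2.51 in the other 3 compartments (exact p = 0.00247, adjusted 0.00495).

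The 2 matrix genes differed as well. Egfl7 had a mean log2 ratio of -1.40 ± 0.43 in arterioles and -2.60 ± 0.38, -2.66 ± 0.44 and -3.86 ± 1.43 in glomeruli, venules and capillaries (exact p = 0.00529, adjusted 0.00847). For Mmrn2 the values were -1.50 ± 0.95 in arterioles, -2.79 ± 0.49 in venules, -3.04 ± 0.92 in capillaries and -3.34 ± 0.25 in glomeruli (exact p = 0.0128, adjusted 0.0171), and the adjusted permutation p without arteriole 96 was 0.0692. Of the reference genes, Kdr was itself lower in arterioles than in glomeruli, by -4.43 ± 0.78 on the log2 scale (FDR = 0.00039). With Kdr and Flt1 left out of the reference, 4 genes passed and Egfl7 and Mmrn2 did not (adjusted permutation p = 0.0812 and 0.718). Esam did not pass (exact p = 0.269, adjusted 0.269), with means between -4.07 and -2.77, but did without arteriole 96 (adjusted permutation p = 0.0106). Jam2 did not pass either (exact p = 0.108, adjusted 0.123), and did without arteriole 100 (adjusted permutation p = 0.00634). Its level was below the pseudocount in every capillary library and in glomerulus 93, so both Jam2 results depend on that constant. Set against the other 7 genes of the group instead, Cldn5 alone differed between compartments.

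**Figure D4:**
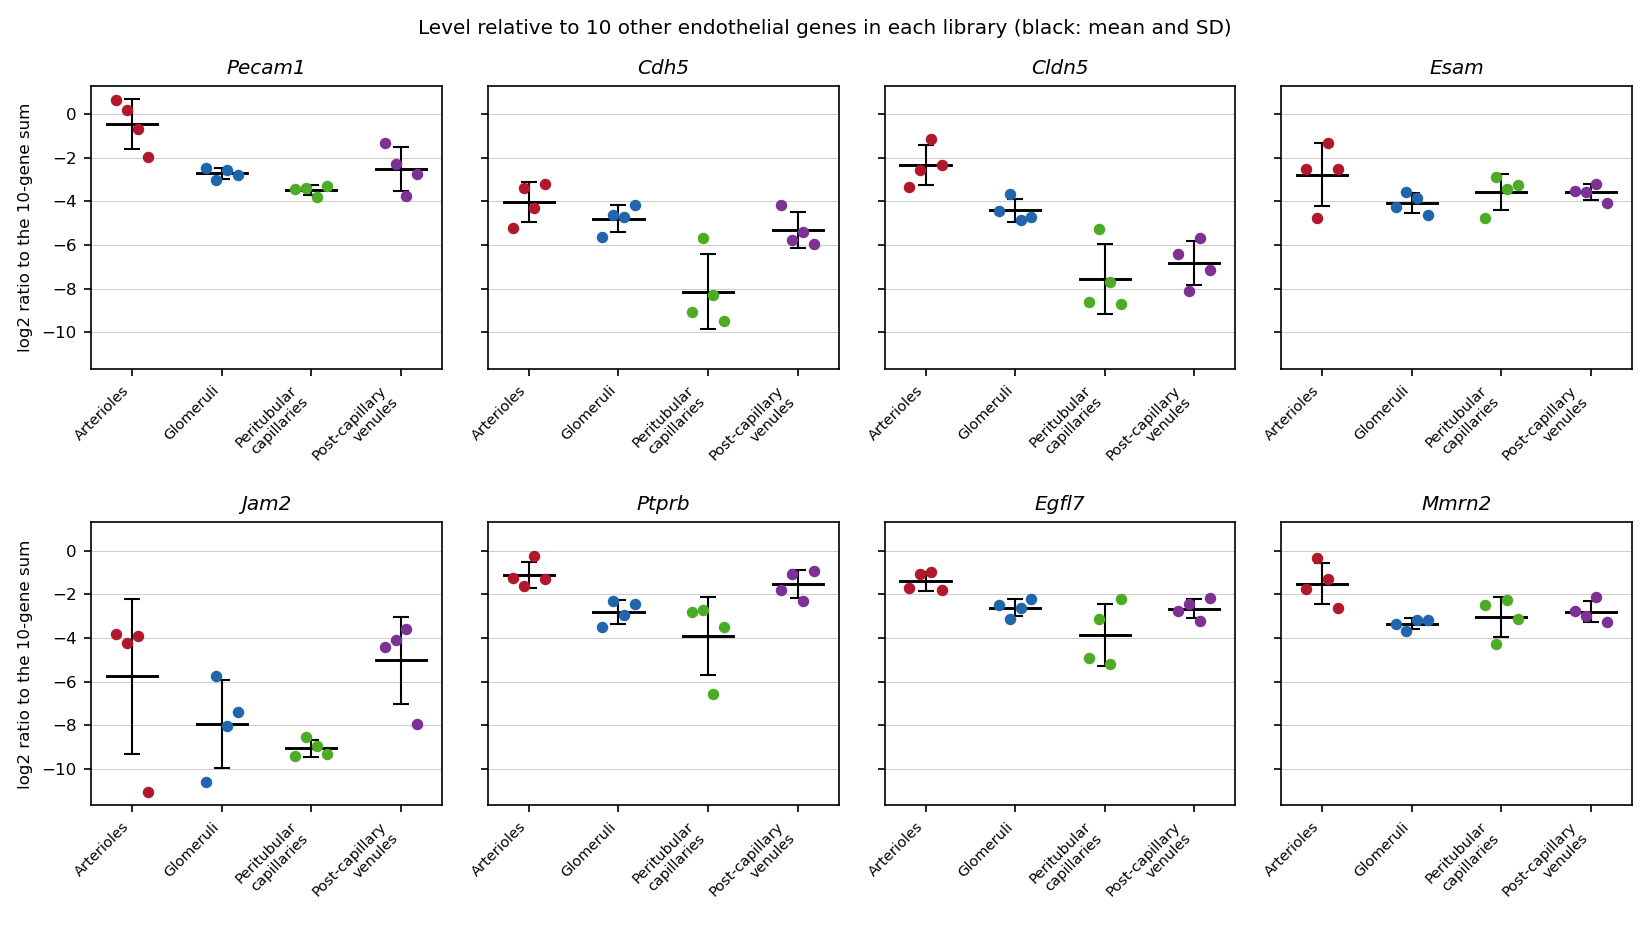
Log2 ratio of each gene to the summed level of 10 other endothelial genes, with 1 point per microdissected library and the mean and SD of 4. Arterioles have the highest mean for every gene but Jam2, and capillaries the lowest for all but Esam and Mmrn2. Arteriole 100 lies at -11.1 for Jam2, a value set by the pseudocount, as Jam2 had 0 counts there. Jam2 was also below the pseudocount in every capillary library and in glomerulus 93.

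The share that each gene took of the 8-gene sum, a measure that depends on how well each 3′ end was captured, is given only to compare groups. Cldn5 made up 8.73 ± 5.08% of the sum in arterioles and 6.78 ± 2.76% in glomeruli, against 1.33 ± 1.86% in capillaries, 0.945 ± 0.872% in venules and 1.15 ± 0.204% in whole kidney. Ptprb made up 34.6 ± 12.4% in venules and had means from 17.8 to 20.5% in the other groups. Mmrn2 ranged from 8.42 to 50.9% between capillary libraries and from 16.1 to 16.9% between whole kidney libraries.

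Other genes of the same pathways are described by list. Of 12 other tight junction and JAM genes, edgeR called none higher in arterioles than in whole kidney (0 at an unadjusted p under 0.05, 1 by DESeq2) and 1 lower, Igsf5, which encodes a junction protein also known as JAM4, at -6.29 ± 1.42 (FDR = 0.00282). Of 12 adherens junction and catenin genes, 3 were higher, among them Cdh13 (4.63 ± 0.95, FDR = 0.00107), which encodes T-cadherin, and Vcl (3.21 ± 0.85, FDR = 0.012), which encodes vinculin, and Nectin2 was lower (-5.13 ± 1.27, FDR = 0.00667). Median log2 fold changes of these lists were -0.14 and 0.40, beside 4.33 for the 8 genes, 3.03 for the 10 other endothelial genes and 0.22 for all genes tested. In glomeruli edgeR called no gene of either list, and the medians were -0.28 and 0.03. At an unadjusted p under 0.05, 1 tight junction gene was higher and 1 lower there, and 3 adherens junction genes were higher and 1 lower, of which DESeq2 called 0 and 1.

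Lists of VE-cadherin signalling, receptor phosphatases, the endothelial surface and relatives of Egfl7 and Mmrn2 had medians between 2.18 and 2.33 in arterioles. Of 11 tested genes of VE-cadherin signalling and the Rap1 pathway, 3 were higher in arterioles, Heg1 (5.41 ± 0.59, FDR = 2.59e-08), Rapgef1 (2.34 ± 0.68, FDR = 0.0218) and Rasip1 (2.90 ± 0.89, FDR = 0.0311). Heg1, the transmembrane partner of the CCM complex at endothelial junctions, was also higher in glomeruli (3.18 ± 0.54, FDR = 0.000207) and, like Ptprb, in venules (2.46 ± 0.52, FDR = 0.0177). It was lower in capillaries than in venules by -3.44 ± 0.59 (FDR = 0.00107). Of 5 tested receptor phosphatases other than Ptprb, Ptprm alone was higher in arterioles (3.77 ± 1.24, FDR = 0.0424).

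Of 15 tested genes of the endothelial surface, 6 were higher in arterioles than in whole kidney and 1 lower, with Bcam (4.14 ± 0.76, FDR = 0.000233), Icam2 (4.67 ± 1.05, FDR = 0.00265) and Mcam (5.43 ± 1.22, FDR = 0.00271) having the smallest p. In glomeruli 5 were higher, led by Nrp1 (3.10 ± 0.51, FDR = 0.000154), Emcn (3.24 ± 0.71, FDR = 0.00482) and Cd151 (2.10 ± 0.47, FDR = 0.0059). Emcn, which encodes endomucin, and Nrp1, a co-receptor for VEGF, were lower in arterioles than in glomeruli by -5.33 ± 0.83 (FDR = 6.67e-05) and -2.92 ± 0.55 (FDR = 0.000941), and none of the 8 genes was lower in arterioles than in glomeruli. Among 6 tested relatives of Egfl7 and Mmrn2, Notch4 (5.67 ± 1.07, FDR = 0.000344) and Emilin1 (3.30 ± 1.03, FDR = 0.0347) were higher in arterioles. In capillaries against whole kidney edgeR called no gene of these 6 lists. At an unadjusted p under 0.05, 2 surface genes were higher and 3 relatives of Egfl7 and Mmrn2 lower, and DESeq2 called 1 of the relatives lower.

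Across the 16 microdissected libraries, log2 levels of the 8 genes were correlated with each other at Pearson's r from 0.352 to 0.881, with a median of 0.709 over 28 pairs. Libraries of one compartment share their tissue and preparation, so these values are descriptions only. The named gene most like each member in this sense was Actb for Pecam1 (r = 0.956), Rbfox2 for Cdh5 (0.927), Hspa12b for Cldn5 (0.962), Nfatc4 for Esam (0.855), Fzd6 for Jam2 (0.876), Gata3 for Ptprb (0.921), Gnai2 for Egfl7 (0.920) and Hspg2 for Mmrn2 (0.949). Next came Csrp1 and Mylk for Pecam1, Gdf10 and Acvrl1 for Cdh5, Map1a and Sorbs2 for Cldn5, Hid1 and Enah for Esam, Kctd13 and Sun1 for Jam2, Klf3 and Timp2 for Ptprb, Timp2 and Actb for Egfl7, and Parm1 and Cfl1 for Mmrn2, with r from 0.844 to 0.951. None of the 8 was among the 3 genes most like another.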

How the data were processed

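Laser microdissected compartments and whole sections of mouse kidney were profiled with QuantSeq 3′ mRNA sequencing. The authors trimmed with bbduk, mapped to GRCm38.p6 by STAR 2.7, assigned reads to genes by HTSeq 0.13 and deposited the raw counts. Submitters' notes also name featureCounts and GRCm39. The sources used here do not give a strand setting or molecular identifiers. The deposited counts cover 168 columns, of which 20 were used and 148 belong to other samples. A further 3 lines without a gene were dropped. The 8 genes and the gene lists were chosen with earlier results of these data known. Genes passed edgeR's filterByExpr. Fits used edgeR 4.0.16 in R 4.3.3 (quasi-likelihood, TMM, Benjamini-Hochberg), with 20 libraries for comparisons with whole kidney and 16 for those between compartments. Ratios (pseudocount of 1 CPM) were compared by exact permutation of libraries on the sum of squares between groups in Python 3.11.15. The scripts were tested on simulated data. Genes of a list were named where called, up to 3 by smallest p, and the 3 genes most like each member by Pearson's r of log2 CPM, passing over predicted genes and pseudogenes; Kdr was singled out after its values were seen. Alternatives were RLE scaling, other filters, DESeq2 1.42.0, a replicate block, fits of 8 libraries, other references, a pseudocount of 5 and leaving out each library. The GENCODE M21 annotation gave loci.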

Additional observations from a re-analysis of the deposited data

Results flagged for a closer look

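Among 80 sets of 4 libraries (8 genes in 5 groups, as CPM and as log2 ratio to the 10 endothelial genes), 6 held a library whose gap to its nearest neighbour, as a share of the whole range, exceeded Dixon's 95% critical value. Chance alone marks about 1 set in 20. Capillary 96, whose column name carries the further letters WH, accounted for 3 of them. Cdh5 was at 7.52 CPM there and at 0.249 to 0.933 CPM in the other capillary libraries (gap 0.9059 of the range), and Cldn5 at 10.2 CPM against 0.746 to 1.98 CPM (0.8689). Mmrn2 went the other way, at 20.9 CPM against 113 to 128 CPM (0.8585). Capillary 100 held Egfl7 at 215 CPM, against 15.7 to 48.2 CPM in the other capillaries (0.8369). Arteriole 96 held Mmrn2 at 1783 CPM, against 350 to 532 CPM in the other arterioles (0.8726). In arteriole 100 the log2 ratio of Jam2 to the 10 endothelial genes was -11.1, against -4.25 to -3.82 in the other arterioles (0.9408). Jam2 had 0 counts in that library, so the pseudocount of 1 CPM and the 10-gene sum set this value and its gap.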

How the results depend on the processing

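Of 159 counts of called genes under alternatives other than leaving out a library, 145 stayed within 1.5 times the reported count. The count in arterioles against glomeruli was 1 as reported and 2 with all 20 libraries in the fit, with RLE, with independent filtering and with DESeq2. Of all genes, 162 of 12179 were called higher as reported, and 347 of 13813, 237 of 12179, 397 of 10443 and 805 of 12482 in these settings. In capillaries against venules 0 genes were lower as reported, 1 without a filter on low counts, and 2 with independent filtering or DESeq2. Of all genes, 40 of 12179 were lower as reported, and 85 of 21058, 127 of 5544 and 525 of 12587 in these settings. In venules against whole kidney 1 became 2 with independent filtering and 3 in a fit of the 8 libraries compared, and in glomeruli against venules 1 became 2 in both. Over all genes, calls higher in venules than in whole kidney went from 28 of 13813 to 74 of 1278 and 317 of 12919. Those higher in glomeruli than in venules went from 60 of 12179 to 101 of 2278 and 279 of 10685. Arterioles against venules gave 7 in place of 4 with DESeq2, where 1121 of 12676 genes were called higher in place of 305 of 12179. Jam2 alone (1 gene) was lower in capillaries than in whole kidney in the fit of 8 libraries. That fit called 1066 of 12705 genes lower there, in place of 1 of 13813. Esam in arterioles against capillaries was lost in the fit of 8 libraries (FDR = 0.0791). The number of ratios that differed fell from 6 to 1 with the other 7 genes as reference. The cause of these changes was not tested. RLE moved the median of all genes by over 0.1 only in contrasts with arterioles (0.17 to 0.28) and in glomeruli against the other 3 compartments (-0.12). It took the calls over all genes from 162 higher and 105 lower to 237 and 91 in arterioles against glomeruli, from 305 and 228 to 399 and 173 in arterioles against venules, and from 10 and 40 to 2 and 28 in capillaries against venules. DESeq2, with its own scaling and test, gave 805 and 1218 in arterioles against glomeruli and 51 and 390 in capillaries against whole kidney, where edgeR gave 12 and 1.

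Leaving out a library gave 6 to 7 genes in arterioles against whole kidney, 0 to 1 in venules against whole kidney, 0 to 1 in arterioles against glomeruli and in glomeruli against venules, 7 to 8 in arterioles against capillaries, 4 to 5 in glomeruli against capillaries, 6 to 8 arteriole markers, 0 to 2 glomerular markers and 6 to 7 ratios. Of 1280 values of single genes 1226 kept direction and call, 29 lost and 7 gained a call and 18 changed sign. None of the values that changed sign was called. Their leave-one-out ranges on the log2 scale were, against whole kidney in capillaries, -0.43 to 0.0641 for Pecam1, -0.98 to 0.74 for Cldn5 and -0.41 to 1.33 for Egfl7, in capillaries against venules, -0.50 to 0.24 for Esam and -0.50 to 0.20 for Mmrn2, and against the other 3 compartments, -0.42 to 1.04 for Jam2 in glomeruli, -1.08 to 0.0638 for Cdh5 in venules and -0.27 to 0.13 for Ptprb in venules. Mmrn2 in glomeruli was at -0.0661 with RLE and -0.0659 with DESeq2, and Ptprb in venules at 0.0337 without a filter and with independent filtering.

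A replicate block on the library number left every count as reported (7 genes in arterioles, 5 in glomeruli, 1 in venules and 0 in capillaries against whole kidney). Correlations of deviations from group means were small over 40 same-numbered pairs, from -0.05 to 0.06. Their median was 0.0064, against -0.002 over 120 pairs with different numbers. Yet 14 of 20 libraries correlated best with their own number, more than equal odds among the numbers would give. This is a hint of pairing from the data that leaves the question unsettled, since the labels do not say whether a number marks a mouse.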
